A study of Mus musculus with 3 samples.

Results

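The GIMAP genes (GTPases of immunity-associated proteins) were measured in follicular regulatory T (Tfr) cells of wild type mice and of mice with a Rptor deletion genotype. They were taken as every probe set annotated to Gimap1, Gimap3, Gimap4, Gimap5, Gimap6, Gimap7, Gimap8 or Gimap9 alone. This gave 11 probe sets of the 45101 on the array: 2 each for Gimap4, Gimap6 and Gimap7 and 1 for each other gene. No probe set was shared with another symbol, and all 11 passed the filter on low values, so all 8 genes were among the 12721 tested. The cells were sorted from spleens of C57BL/6 mice 8 days after OVA immunization, as lineage-negative cells gated on CXCR5, GITR, CD25, CD44 and CD4. The wild type (WT) group was 1 array of RNA pooled from 4 mice. The Rptor-null group was 2 arrays, labelled biological replicates, each of RNA pooled from 8 mice. Those mice carried CD4-Cre with Rptorfl/fl. Rptor, which encodes the mTORC1 subunit raptor, is thus targeted for deletion in all cells that have expressed CD4-Cre and not in Tfr cells alone. The labels give no age, sex or batch, and the WT mice are not said to carry Cre.

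GIMAP proteins are small GTPases found mainly in lymphocytes. They share a GTP-binding domain named after a plant immunity gene, and many are anchored to the membranes of internal organelles. Their genes sit side by side in 1 cluster on mouse chromosome 6, and animals that lack certain members lose mature lymphocytes. The comparison bears on what cells sorted as Tfr cells express when the genotype deletes Rptor in the T lineage. The arrays do not measure mTORC1 activity.

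Of the 8 GIMAP genes, 5 were lower in Rptor-null cells and 0 were higher. Gimap7 fell 2.06-fold and Gimap1 fell 1.93-fold, while Gimap6, Gimap4 and Gimap3 fell by smaller amounts, between 1.29-fold and 1.49-fold. Gimap9, Gimap5 and Gimap8 did not pass the test. These calls used limma with Benjamini-Hochberg adjustment at 0.05, on log2(intensity + 16), with the brightest probe set standing for a gene. In the same fit 11.1% of all genes were called lower and 3.93% higher. Of the 8 members 7 lay among the brightest 20% of genes, where 22.2% were called lower. At an unadjusted p under 0.05 the member counts were 6 lower and 0 higher, where 21.7% of all genes were lower and 8.14% higher. Only the Rptor-null group has a repeat, so the spread of its 2 arrays was taken to hold for WT as well, and all differences share the 1 WT array. Without a trend in the variance prior 2 calls were left, those of Gimap7 and Gimap1, each with an adjusted p = 0.0236. In that setting 6.05% of all genes were called lower and 2.37% higher.

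**Figure D1:**
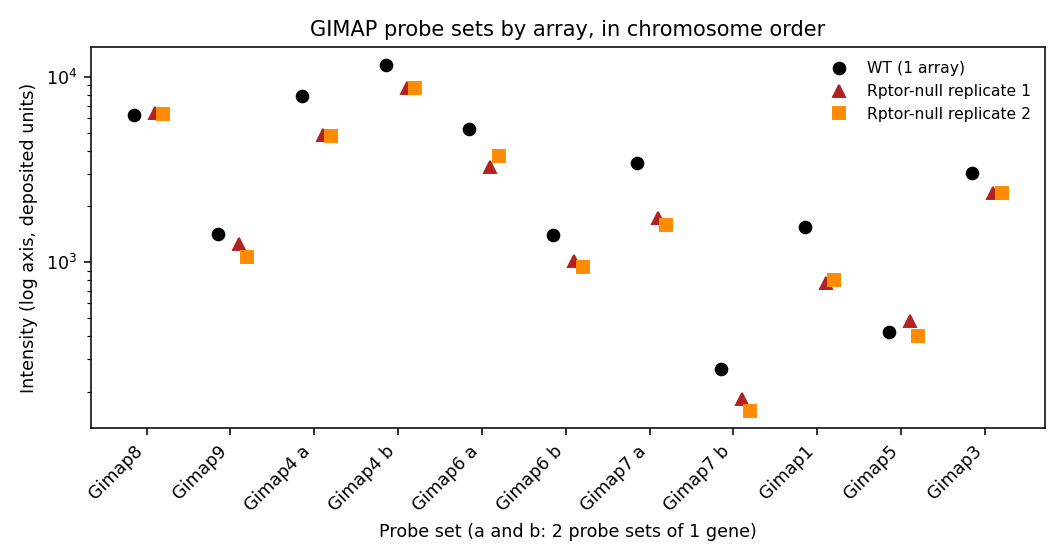
Deposited intensity (log axis) of the 11 GIMAP probe sets on the WT array (black circles) and the Rptor-null arrays (red triangles and orange squares), in chromosome order, with no error bars since each point is 1 array. Both Rptor-null points lie below the WT point for 9 of the 11 probe sets, the exceptions being those of Gimap8 and Gimap5. The share of all probe sets with both points below WT was not computed, and the median log2 difference of all genes was -0.060. Levels of different probe sets are not comparable.

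Gimap7 encodes a GIMAP protein that forms dimers through its GTP-binding domain. Its brighter probe set (1425084_at) read 3437 in WT, 1733 in Rptor-null replicate 1 and 1590 in replicate 2. Both Rptor-null values were about 50.4% and 46.3% of WT, and they lay close together. The log2 difference was -1.04 ± 0.098 (SE; limma adjusted p = 0.00336), and the 95% interval of the fold was 1.76 to 2.42. Among all genes tested 0.739% had a more negative difference. The dimmer probe set (1444283_at) read 265, 183 and 157 in the same order, again with both Rptor-null values below WT. Its difference, -0.60 ± 0.17, did not pass in the fit over all probe sets (adjusted p = 0.0739).

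Gimap1 encodes a Golgi-resident member that mature T and B cells need to survive. Its 1 probe set (1449988_at) read 1539 in WT, 774 in replicate 1 and 803 in replicate 2. The Rptor-null arrays were nearly equal and both far below WT. The log2 difference was -0.95 ± 0.10 (adjusted p = 0.00402), with a 95% interval of 1.63-fold to 2.29-fold lower, and 1.20% of genes had a more negative difference.

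The 4 printed sequences let the starts of the members that fell most, Gimap7 and Gimap1, be read beside those of 2 members that did not pass the test, Gimap5, the next gene after Gimap1 in the cluster, and Gimap8. Each runs 5′ to 3′ on the gene's own strand, from 250 bases before to 50 bases from the annotated start on, and comes from RefSeq (build GRCm38.p6). Capitals mark the ETS core motif GGAAGT and the RUNX motif TGTGGT on either strand.
Gimap7 (chr6:48718371-48718670, plus strand): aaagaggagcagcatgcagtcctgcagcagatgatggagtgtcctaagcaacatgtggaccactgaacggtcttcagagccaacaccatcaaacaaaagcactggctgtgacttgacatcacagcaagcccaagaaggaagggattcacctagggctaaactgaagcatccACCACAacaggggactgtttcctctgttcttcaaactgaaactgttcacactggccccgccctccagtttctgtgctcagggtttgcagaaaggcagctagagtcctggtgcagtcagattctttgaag
Gimap1 (chr6:48738797-48739096, plus strand): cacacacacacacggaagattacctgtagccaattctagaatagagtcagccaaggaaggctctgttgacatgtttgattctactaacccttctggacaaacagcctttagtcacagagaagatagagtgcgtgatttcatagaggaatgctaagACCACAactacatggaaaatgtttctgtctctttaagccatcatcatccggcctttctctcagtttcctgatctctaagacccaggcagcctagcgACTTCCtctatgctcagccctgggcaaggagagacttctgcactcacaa
Gimap5 (chr6:48745947-48746246, plus strand): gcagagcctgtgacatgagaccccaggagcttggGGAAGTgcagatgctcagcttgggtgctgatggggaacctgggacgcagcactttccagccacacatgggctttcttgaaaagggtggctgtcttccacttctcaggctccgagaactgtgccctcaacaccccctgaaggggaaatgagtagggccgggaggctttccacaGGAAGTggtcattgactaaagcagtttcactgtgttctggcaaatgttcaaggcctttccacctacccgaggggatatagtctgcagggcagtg
Gimap8 (first of 2 annotated starts, chr6:48646984-48647283, plus strand): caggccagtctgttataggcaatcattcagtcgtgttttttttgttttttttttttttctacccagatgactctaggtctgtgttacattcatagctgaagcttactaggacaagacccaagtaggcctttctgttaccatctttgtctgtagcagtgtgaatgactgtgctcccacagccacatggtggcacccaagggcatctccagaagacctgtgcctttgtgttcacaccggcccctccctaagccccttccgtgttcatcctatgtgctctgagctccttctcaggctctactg

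All 8 genes were found in the promoter table, with 9 windows of 300 bases. The ETS motif, the binding core of a transcription factor family active in lymphocytes, was present in the windows of Gimap1, Gimap5, Gimap6 and Gimap9, and in 23.8% of all 32851 windows. RUNX motifs, bound by the RUNX factors of T cells, lay in those of Gimap1, Gimap4 and Gimap7, and in 16.8% of all windows. The STAT motif TTCNNNGAA was found for Gimap3, Gimap6, Gimap7 and Gimap8 (8.3% of all windows). For Gimap8 the STAT match lay in the window of its other annotated start, which is not printed. The FOXO motif GTAAACA was found for Gimap3 (3.6%), and the KLF or SP motif CCCGCC for Gimap7 and Gimap9 (35.3%). The MYC-type E-box CACGTG was in 0 of the 9 windows and in 7.2% of all. Both strands were searched, and no matches in GIMAP windows overlapped. The ETS motif stood in windows of called and of uncalled members alike. The RUNX motif, marked in the printed windows of Gimap7 and Gimap1, was also in that of Gimap4, and all of these were called lower. It was absent from the windows of Gimap6 and Gimap3, which were also called lower. It was absent as well from those of Gimap5, Gimap8 and Gimap9, which were not called. Whether motifs and calls go together was not tested. A match describes the letters of a window and is not a measured binding site.

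Gimap6 encodes a partner of GABARAPL2, a protein of the autophagosome membrane. The brighter probe set (1427891_at) gave 5237 in WT, then 3281 and 3730. The other (1456762_at) read 1396, 1019 and 942. On both probe sets the Rptor-null arrays were below WT, with replicate 1 the lower on the brighter and replicate 2 on the dimmer. The log2 difference of the gene was -0.58 ± 0.10 (adjusted p = 0.0121), and the dimmer probe set gave -0.50 ± 0.11 (adjusted p = 0.0409 over all probe sets).

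Gimap4 encodes a member linked to the pace of T cell death. Its brighter probe set (1424375_s_at) gave 11626 in WT against 8694 and 8716. The suffix of that probe set marks a design that can match several transcripts. The other (1424374_at) gave 7893 in WT against 4863 and 4794. Rptor-null values hardly differed from each other on either probe set, and all lay below WT. The size depended on the probe set, with a log2 difference of -0.42 ± 0.076 for the brighter (gene-level adjusted p = 0.0136) and -0.71 ± 0.081 for the other (adjusted p = 0.0106 over all probe sets).

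Gimap3, which affects the inheritance of mitochondrial DNA in mouse tissues, read 3034 in WT against 2363 and 2347 (1449220_at). Both Rptor-null arrays stood at about 77.9% and 77.4% of WT. The log2 difference of -0.36 ± 0.088 passed among genes (adjusted p = 0.0328) and missed the threshold in the fit over all probe sets (adjusted p = 0.0558). After quantile normalization it was -0.26 (adjusted p = 0.109).

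Gimap9, a less studied member, read 1422 in WT against 1254 and 1060 (1437756_at). Both were below WT, replicate 2 by more, and the log2 difference of -0.30 ± 0.12 did not pass (adjusted p = 0.156). Gimap5, a lysosomal member whose loss lowers lymphocyte numbers in rats and mice, read 417 in WT and 482 and 400 (1444181_at). The Rptor-null arrays lay on opposite sides of WT, and the log2 difference was 0.070 ± 0.15 (adjusted p = 0.795), with a 95% interval of 0.826 to 1.33 times the WT level. It was -0.059 without the first Rptor-null array. Gimap8, the largest member with several GTP-binding domains, read 6202 in WT and 6382 and 6305 (1456061_at). All values lay within a few percent of each other, and the interval ran from 0.899 to 1.16 times WT (log2 difference 0.033 ± 0.079, adjusted p = 0.824). A fall of the size seen for Gimap7 or Gimap1 lies outside that interval, as it does for Gimap5 and Gimap9 (0.665 to 0.994 times WT). These intervals take the single WT array to vary like the Rptor-null arrays, so they cannot cover an error particular to that array. A missed threshold does not show that Gimap9 or Gimap5 stayed the same. Gimap3 and Gimap5 are close paralogs, and whether any probe set also binds the transcript of a relative was not tested.

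**Figure D2:**
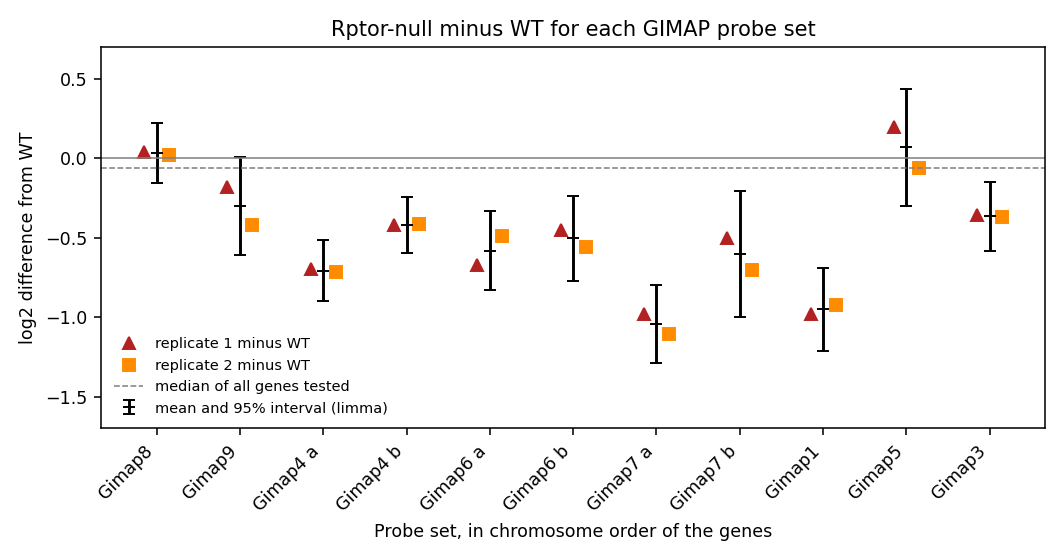
Log2 difference from WT for each GIMAP probe set in chromosome order, with each Rptor-null array as a symbol and the limma mean and 95% interval (fit over all probe sets) as bars. Gimap7 and Gimap1, neighbours in the cluster, are lowest (-1.04 and -0.95), and Gimap8 and Gimap5 lie near 0.

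Fitted probe set by probe set, 6 of the 11 were called lower, 0 were called higher and 5 missed the threshold, where 6.11% of all 27022 kept probe sets were lower and 2.81% higher. At an unadjusted p under 0.05 these counts were 8 and 0, against 16.4% and 8.57% of all kept probe sets. Without a trend in the variance prior 0 member probe sets passed, beside 1 lower call over all 27022. At an unadjusted p under 0.05 in that setting 8 member probe sets were lower, where 15% of all were. By size alone, with no test, 2 of the 8 genes (Gimap7 and Gimap1) were at least 1.5-fold lower in both Rptor-null arrays, where 5.18% of all genes were. That count used the brightest probe set of each gene. The other Gimap4 probe set (1424374_at) was also past this size, at 61.6% and 60.7% of WT. Without cross-matching probe sets it stood for Gimap4 and the count was 3, with no share over all genes taken in that setting. The Rptor-null arrays differed from each other by at most 0.26 on the log2 scale for any member probe set. Over all genes the median of that gap was 0.12.

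In chromosome order the log2 differences were 0.033 for Gimap8, -0.30 for Gimap9, -0.42 for Gimap4, -0.58 for Gimap6, -1.04 for Gimap7, -0.95 for Gimap1, 0.070 for Gimap5 and -0.36 for Gimap3. The largest falls, of Gimap7 and Gimap1, were in adjacent genes. Whether 1 member's difference departs from another's was not tested. The median over members was -0.39, and over all genes it was -0.060, with the 5th percentile at -0.66 and the 95th at 0.46. After quantile normalization the member median was -0.32 and that of all genes -0.0077. Called genes were lower in 73.8% of cases as deposited and in 57.1% after quantile normalization.

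**Figure D3:**
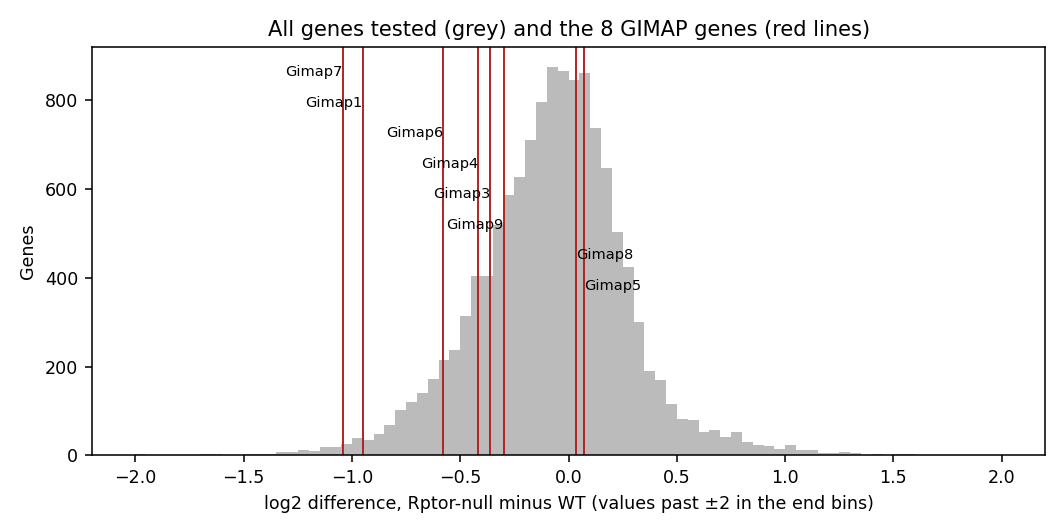
Histogram of the log2 difference (Rptor-null minus WT) of the 12721 genes tested, with a red line at each GIMAP gene. Gimap7 and Gimap1 stand in the lower tail, Gimap6, Gimap4, Gimap3 and Gimap9 on the lower flank, and Gimap8 and Gimap5 near the middle.

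Around the cluster, of the 12 nearest measured protein-coding genes, 6 on each side, 10 were tested, with 1 lower, 1 higher and a median of -0.060. Over all genes 11.1% were called lower and 3.93% higher. Tmem176a, the second gene beyond Gimap3, rose 1.42-fold (316 in WT, 436 and 478). Malsu1, a mitochondrial ribosome assembly factor, fell 1.51-fold (941 in WT, 632 and 606). Zfp775, the nearest on the Gimap8 side, read 76.2 in WT and 50.5 and 65.8 (adjusted p = 0.285). Zfp775 and the other 7 flanking genes tested did not pass in either direction.

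Among partners and related genes, those for autophagy and the ATG8 proteins had 1 of 11 lower and 0 higher, with a median of -0.14. That count is near the share over all genes, of which 11.1% were called lower and 3.93% higher. The 1 called in that list was Gabarapl2, which encodes the partner of GIMAP6. It read 1708 in WT against 1042 and 944, a 1.71-fold fall (adjusted p = 0.00639). Gabarapl1, a close relative of it, read 363, 293 and 289 (adjusted p = 0.175), and Atg7, an enzyme of ATG8 lipidation, read 203, 280 and 261 (adjusted p = 0.122). The BCL2 family, some of whose members bind GIMAP proteins, had 0 of 7 past the test in either direction and a median of -0.0066. Bad, a death-promoting member, read 168, 93.5 and 114 (adjusted p = 0.0542), Bcl2 1063, 1304 and 1155, and Mcl1 6025, 7095 and 7216.

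Another family of immune GTPases, the interferon-inducible IRG, GBP and Mx proteins, had 7 of 11 lower and 0 higher, with a median of -0.44. Of all genes 11.1% were called lower and 3.93% higher. Gbp3 read 1175 in WT against 791 and 793, a 1.47-fold fall. Irgm1 fell 1.40-fold and Mx1 1.43-fold. Genes of resting lymphocytes, cells in which GIMAP genes are well expressed, had 3 of 13 higher, 0 lower and a median of 0.19. Klf2, a factor of quiescence and homing, rose 1.37-fold (3626 in WT, 4791 and 5139), Satb1, a chromatin organizer, 1.38-fold and Bach2, a repressor of effector genes, 1.41-fold.

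**Figure D4:**
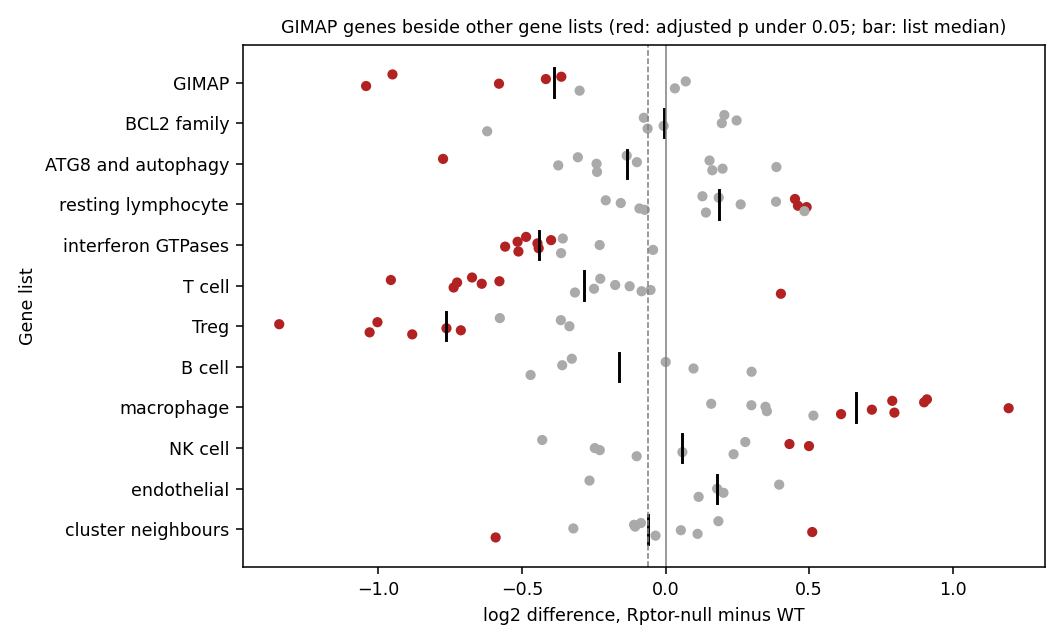
Log2 difference (Rptor-null minus WT) of each tested gene, by list, with called genes in red, others in grey, a bar at each list's median and a dashed line at the median of all genes. The GIMAP median (-0.39) lies near those of the T cell (-0.28) and interferon GTPase (-0.44) lists. It lies above that of the Treg list (-0.76) and below those of the resting lymphocyte (0.19) and macrophage (0.66) lists.

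Markers of cell types moved on the same arrays, where 11.1% of all genes were called lower and 3.93% higher. T cell genes were lower in 6 of 14 cases and 1 was higher, with a median of -0.28. Cd3g, Lat and Cd3d, parts of T cell receptor signalling, fell by 0.96, 0.74 and 0.67 on the log2 scale. Treg genes were lower in 6 of 9 cases and 0 were higher (median -0.76), among them Tnfrsf18, Nt5e and Ctla4. Macrophage genes were higher in 7 of 12 cases and 0 were lower (median 0.66), with Vcam1, Adgre1 and Cd14 rising 2.29-fold, 1.88-fold and 1.87-fold. The summed intensity of the T cell list was 61313 in WT against 46794 and 45494, and that of the macrophage list 34707, 47501 and 53894. In WT, Lyz2 (14972) and Csf1r (7911) made up most of the macrophage sum, while Cd14 read 280, Marco 118 and Itgam 71.5. NK cell genes had 2 of 9 higher and 0 lower (median 0.059, sums 11918, 12554 and 12602), Eomes and Klre1 being higher and Ncr1 reading 398, 299 and 285. In the B cell list 0 of 6 tested genes passed (median -0.16, sums 1242, 947 and 1052), with Ms4a1 at 171, 130 and 136, Cd79b at 264, 209 and 196 and Cd22 at 588, 378 and 467, and Ebf1, Cr2 and Fcrla below the filter. In the endothelial list 0 of 5 passed (median 0.18, sums 644, 699 and 683), with Pecam1 at 193, 169 and 147, Kdr at 112, 159 and 146 and Egfl7 at 113, 141 and 120. Of the endothelial list Cdh5, Tek, Tie1, Emcn, Robo4 and Sox17 were below the filter. In RNA from pooled cells, fewer cells of a type and less RNA per cell cannot be told apart, and the part of cell makeup in the GIMAP differences was not tested.

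The arrays also differed in RNA measures, with a Gapdh ratio of 3′ to 5′ signal of 1.11 in WT against 1.94 and 2.58, and one of 1.40, 2.65 and 2.87 for beta-actin. Its part in the GIMAP differences was not tested. Rptor read 365 in WT and 353 and 412, and where its probe set lies relative to the deleted exons is not given, so the value is no check of the deletion. Foxp3, which defines regulatory T cells and was not a sort marker, read 752, 587 and 423 (adjusted p = 0.0799). Of the genes of the sort markers, Cxcr5, the follicle homing receptor, read 713, 374 and 392 (adjusted p = 0.00639), and Tnfrsf18 (GITR) 3837, 1549 and 1453 (adjusted p = 0.00185). Il2ra (CD25) read 464, 366 and 348 (adjusted p = 0.102), Cd4 696, 579 and 587 (adjusted p = 0.190) and Cd44 3540, 4383 and 4306 (adjusted p = 0.0546).

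The genes whose pattern was most like the median of the GIMAP members were Sec61b, of the protein channel of the endoplasmic reticulum, Syf2, a splicing factor, Il16, which encodes a T cell chemoattractant, and Epsti1, an interferon-induced gene. Likeness was the Euclidean distance over the 2 log2 differences from WT, which share the WT array. The distances were between 0.0044 and 0.0083, and 511 genes outside the family lay within 0.1, so the match picks out no small group.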

How the data were processed

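RNA from 3 pools of sorted mouse Tfr cells was hybridised to 1-colour Affymetrix arrays, 1 array a pool. The deposited values are probe-set intensities on a linear scale and look as if they were scaled before deposit. Per the submitters' processing notes MAS5 was used, with no version, scaling target or background method given in the sources used here. Groups came from the sample titles.

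Gene names came from the platform annotation: 34945 probe sets had 1 symbol, 932 several and 9160 none here, beside 64 controls, which were set aside. A level was the average of WT and the Rptor-null mean, and the 27022 probe sets above its 40th percentile (35.0 units) were kept, and the brightest stood for a gene, giving 12721 genes. Intensities became log2(intensity + 16), so that folds of dim genes are understated. Rptor-null was compared with WT in R 4.3.3 with limma 3.58.1 (lmFit, eBayes with a mean-variance trend, two-sided tests, Benjamini-Hochberg adjustment over all genes or all kept probe sets). The 1 residual degree of freedom (6.39 prior for genes, 5.85 for probe sets) came from the Rptor-null arrays. The number of arrays limits the precision. The labels call the Rptor-null pools biological replicates and give no batch.

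The members and gene lists were chosen with earlier results of these data known. List symbols were matched to the annotation exactly or through the current RefSeq symbol of the same gene ID. Named genes were the 8 members, from each list the 3 tested genes that moved most in the Rptor-null array nearer to WT, both arrays being higher or both lower, genes of the target and sort, and the 4 genes most like the member median. Alternatives were 2 pseudocounts, 2 filters, 2 scalings, no variance trend, each Rptor-null array left out, no cross-matching probe sets, probe sets averaged per gene and 2 other folds.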

Additional observations from a re-analysis of the deposited data

How the results depend on the processing

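Tested as genes, Gimap7 and Gimap1 were lower past the threshold in all 9 settings with a test (log2 difference -1.10 to -0.82 and -0.98 to -0.83, arrays left out included). Without a variance trend, 2 genes and 0 probe sets of the family passed, and calls over all genes were 769 lower (6.05%) and 301 higher (2.37%). Gimap6, Gimap4 and Gimap3 then had adjusted p-values of 0.0603, 0.0928 and 0.124. After quantile normalization 4 GIMAP genes and 700 genes in all (5.5%) were lower. Median centring gave 1589 lower and 877 higher genes, beside 1411 and 500 as deposited. With a size of 1.3-fold in both arrays 4 members were lower (13.2% of all genes), and with 2-fold 0 were (0.597% of all genes), a count by size with no test. With 1 Rptor-null array left out, 2 to 3 members were at least 1.5-fold lower in the other (7.11% and 7.96% of all genes), with no test possible. The sizes under other settings were added after the data were seen. No paired analysis was possible because the WT group is 1 array and its number pairs it with nothing. All 11 probe sets lay above the filter level, and the single WT array limits the precision.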
